A study of Mus musculus with 47 samples.

Results

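The comparison set mouse embryonic stem cells sorted in G2 and mitosis (G2M) against cells sorted in G1, with the control siRNA (siC) in both groups. Its members were the 12382 genes, of 26182 in the deposited table, with a mean of at least 0.5 RPKM (read counts scaled for gene length and library size) over the 4 libraries. Of the 13800 other genes, 6216 were at 0 in all 4 libraries. Groups were siC G1 and siC G2M, each of 2 libraries with replicate numbers 1 and 2, from 47 samples in the series. The series studies thymine DNA glycosylase (Tdg) and the cell cycle of E14Tg2A cells, a feeder-independent mouse embryonic stem cell line, grown in serum-free N2B27 medium with the MEK inhibitor PD0325901, the GSK3 inhibitor CHIR99021 and leukemia inhibitory factor. RNA was depleted of ribosomal RNA and made into stranded total RNA libraries. How the cells were sorted, how long after the siRNA, and whether replicates were separate cultures is not given in the sources used here, so the p-values refer to the scatter of these libraries alone, part of which may be technical. Cells with the Tdg siRNA (siTdg) sorted in the same way, and a separate set of cells at 0 h sorted into G1 and S, G2 and M together (SG2M), are set beside the siC values below, and the siTdg libraries also enter a fit of all 8 sorted libraries and the fits that leave out a replicate number.

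The cell cycle is driven by cyclins that bind and switch on cyclin-dependent kinases. Genes of DNA replication are transcribed from late G1 by E2F factors, and genes of mitosis later by the MuvB, B-Myb and FoxM1 complex, which binds a short element called the cell cycle genes homology region, often with the CCAAT-binding factor NF-Y beside it. Mouse embryonic stem cells have a short G1, high cyclin E and weak G1 control, and some cell cycle transcripts oscillate less in them than in somatic cells.

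Recovered reads per library were 32266391 and 34783249 in G1 and 25822595 and 24330697 in G2M, so the G1 libraries were the deeper ones, and the part of this in the results was not tested beyond the scalings named below. Markers of embryonic stem cells (Pou5f1, Sox2, Nanog, Zfp42 and Esrrb) were between 91.4 and 744 RPKM in every library. Their summed level was 1958 to 1972 RPKM in G1 and 2098 to 2113 RPKM in G2M. Fibroblast and feeder markers (Col1a1, Col1a2, Col3a1, Thy1 and Acta2) reached at most 2.41 RPKM, with Col3a1 at 0 in one G2M library. Trophoblast markers (Cdx2, Elf5 and Gata3) reached at most 0.918 RPKM, and primitive endoderm markers (Gata4, Gata6 and Sox17) at most 2.01 RPKM, with summed levels of 2.58 to 2.60 RPKM in G1 and 1.71 to 1.89 RPKM in G2M. Ptprc, the pan-leukocyte antigen, was at 0 in 3 of the 4 libraries. The blood and endothelial sum of 40.2 to 44.2 RPKM in G1 and 44.4 to 45.4 RPKM in G2M was nearly all Pecam1, and the neural sum of 44.1 to 50.2 RPKM in G1 and 56.0 to 61.0 RPKM in G2M was nearly all Tubb3, both of which embryonic stem cells also express. Tdg itself was at 54.8 and 59.6 RPKM in G1 and 61.6 and 63.1 RPKM in G2M, a log2 difference of 0.12 (SE 0.040, adjusted p = 0.0322).

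In G2M, 2222 genes were called higher and 1379 lower, which is 17.9% and 11.1% of the genes tested, or 29.1% in all (limma with the replicate number as a block, adjusted p under 0.05). Most of these differences were small. Their median size was 0.25 on the log2 scale, and 1904 were below 1.2-fold. A further threshold of 1.5-fold left 123 genes higher (0.993%) and 177 lower (1.43%), or 2.42% in all. For comparison, the G1 and G2M libraries did not overlap for 41% of all genes tested. Chromosome and spindle genes lead the first set, and long non-coding RNAs, small RNA loci, the G1/S genes Ccne2 and Cdc6 and the 2-cell-like genes are in the second. The calls depend on how libraries are paired and scaled. With no replicate block 3 genes were called (0.0242%), namely Top2a, Kpna2 and Prc1, and in one fit of the 8 sorted siC and siTdg libraries 1076 were called (8.63%, with 5.1% higher and 3.53% lower), of which 1074 were among the 3601. The share of calls that were higher was 61.7%, against 57.6% with TMM scaling, 48.8% with median scaling, 48.2% with quantile normalization and 37% with limma-voom on the recovered reads. Those settings moved the median of all genes between -0.04 and 0.02. The authors' deposited table called 675 genes higher (6.23%) and 243 lower (2.24%), and 917 of these 918 were called here too, which is 99.9% of theirs and 25.5% of these. Of the 300 genes past 1.5-fold, 230 were also called in the 8-library fit and 142 in the authors' deposited table, and 36 had overlapping G1 and G2M libraries. The 8-library fit has the same siC differences, and the siTdg libraries change only the spread. The authors' siC comparison is of the same 4 libraries, so neither is a separate measurement.

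**Figure D1:**
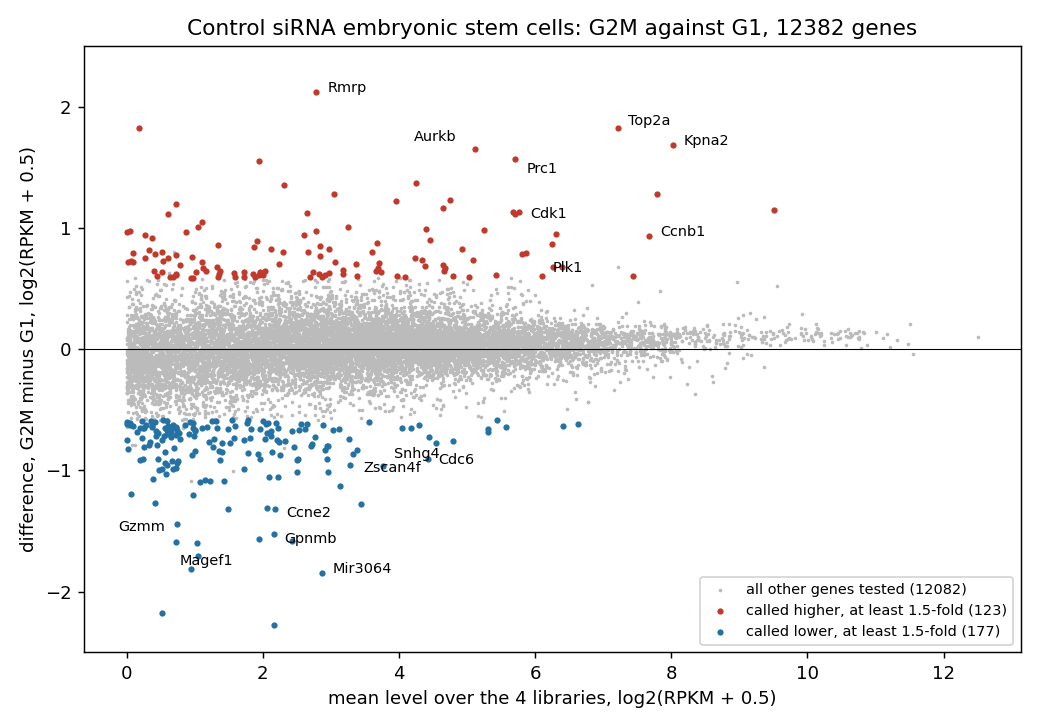
Difference between G2M and G1 (vertical, log2 of RPKM plus 0.5) against the mean level of each of the 12382 genes (horizontal), siC cells. The 123 genes called higher by at least 1.5-fold are red, the 177 called lower are blue, and the most abundant of the red genes include Top2a and Kpna2.

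The genes with the largest rises act on mitotic chromosomes and the spindle. Top2a, the DNA topoisomerase that untangles sister chromatids, was at 61.2 and 68.7 RPKM in G1 and at 234 and 227 RPKM in G2M. Both G2M libraries were far above both G1 libraries, a ratio of means of 3.55 and a log2 difference of 1.82 (SE 0.045, adjusted p = 1.99e-11). Kpna2, an importin that carries proteins into the nucleus and acts on spindle assembly factors, was at 116 and 129 RPKM in G1 and 405 and 386 RPKM in G2M (log2 difference 1.68, SE 0.044, adjusted p = 2.39e-11). Aurkb, the kinase of the chromosomal passenger complex, was at 14.9 and 17.7 RPKM in G1 and 54.0 and 50.5 RPKM in G2M (log2 difference 1.65, SE 0.063, adjusted p = 1.22e-09). In both genes the G2M libraries lay above the G1 libraries with no overlap.

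Prc1, which bundles microtubules in the central spindle, rose from 24.8 and 27.0 RPKM to 77.8 and 77.7 RPKM (log2 difference 1.57, SE 0.044, adjusted p = 3.54e-11). Cenpf, a large kinetochore protein, rose from 12.0 and 8.16 RPKM to 31.6 and 22.0 RPKM (log2 difference 1.37, SE 0.052). Ube2c, the ubiquitin-conjugating enzyme of the anaphase-promoting complex, rose from 124 and 135 RPKM to 329 and 300.05 RPKM (log2 difference 1.28, SE 0.047). The libraries of the phases did not overlap for any of these genes, and all were also called in the 8-library fit and in the authors' deposited table. Depdc1b rose by 1.28 on the log2 scale. Chac1, a glutathione-degrading enzyme induced by the integrated stress response, is the one gene of the 10 largest rises outside cell division apart from Rmrp, with 2.10 and 2.46 RPKM in G1 and 5.91 and 7.29 RPKM in G2M (log2 difference 1.35, SE 0.083).

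Rmrp, the RNA of an endoribonuclease that processes ribosomal RNA, had the highest fitted rise of the named genes, 2.12 (SE 0.46, adjusted p = 0.00427), and rests on 1 library. It was at 0.872 and 2.56 RPKM in G1, 3.66 RPKM in G2M replicate 2 and 18.5 RPKM in G2M replicate 1. With replicate 1 left out its difference was 0.44 and was not called, and in the 8-library fit its adjusted p was 0.0891. The ribosomal RNA precursor Rn45s had the same pattern, with 348 and 502 RPKM in G1, 572 RPKM in G2M replicate 2 and 1497 RPKM in G2M replicate 1.

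**Figure D2:**
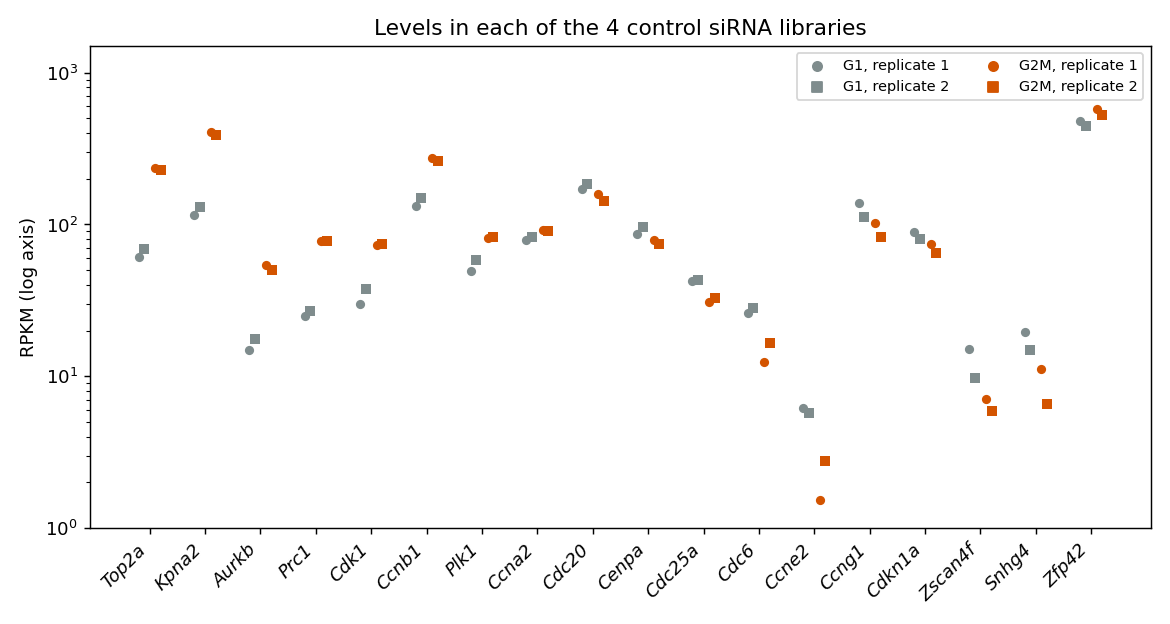
Level of 18 genes in each of the 4 siC libraries (RPKM, log axis), G1 in grey and G2M in orange, with circles for replicate 1 and squares for replicate 2. Top2a, Aurkb and Cdk1 are higher in both G2M libraries, Cdc6 and Ccne2 are lower in both, and Ccna2, Cdc20 and Cenpa lie within a narrow range.

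Most genes of mitosis rose, and a few well-known ones did not. Of 30 tested genes of mitotic entry, 18 were called higher and 2 lower, with a median log2 difference of 0.19 against 0.02 for all genes. The shares were 60% and 6.67%, against 17.9% and 11.1% of all genes tested. In the 8-library fit 14 were higher and 1 lower, and with no trend in the variance 9 and 1. Cdk1, the mitotic kinase, was at 30.1 and 37.3 RPKM in G1 and 72.8 and 74.9 RPKM in G2M (log2 difference 1.13, SE 0.054, adjusted p = 1.18e-08). Its partner cyclin B1, Ccnb1, was at 132 and 149 RPKM in G1 and 275 and 261 RPKM in G2M (log2 difference 0.93, SE 0.047, adjusted p = 2.19e-08). Plk1, the polo kinase that activates Cdk1, was at 49.5 and 58.8 RPKM in G1 and 81.5 and 82.8 RPKM in G2M (log2 difference 0.60, SE 0.048, adjusted p = 1.80e-06). Cyclin A2, Ccna2, was nearly level, at 79.3 and 82.6 RPKM in G1 and 92.3 and 90.5 RPKM in G2M (log2 difference 0.17, SE 0.038, adjusted p = 0.00405). That call was absent from the 8-library fit (adjusted p = 0.152) and from the authors' deposited table (adjusted p = 0.0704).

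Among 45 spindle and cytokinesis genes, 32 were called higher and 1 lower (median 0.28), with Kpna2 and Prc1 at the top. Of 40 kinetochore and checkpoint genes, 28 were higher and 1 lower (median 0.27), led by Cenpf. Chromosome structure genes, which include condensin and cohesin, had 17 of 30 higher and 0 lower (median 0.12; 19 and 0 by limma at an unadjusted p under 0.05). The shares higher were 71.1% (spindle), 70% (kinetochore) and 56.7% (chromosome structure), against 17.9% of all genes tested. In the 8-library fit, which called 5.1% of all genes higher, 22, 16 and 10 were higher. With no trend in the variance 15, 12 and 5 were. Cdca2, which guides a phosphatase to chromosomes, was at 14.6 and 15.2 RPKM in G1 and 37.1 and 31.3 RPKM in G2M (log2 difference 1.17, SE 0.062). Centrosome genes had 12 of 28 higher and 0 lower (14 and 2 by limma at an unadjusted p under 0.05), with Stil and Aspm, a centriole assembly factor and a spindle pole protein, rising by 0.60 and 0.58. Of the centrosome genes, 6 were higher and 2 lower with quantile normalization and with limma-voom, and 4 were higher in the 8-library fit. Of 22 genes of the anaphase-promoting complex and its regulators, 5 were higher and 3 lower. These shares, 22.7% and 13.6%, are near the 17.9% and 11.1% of all genes tested. Fzr1, the activator that keeps this complex on in G1, was at 32.2 and 32.8 RPKM in G1 and 74.5 and 67.8 RPKM in G2M (log2 difference 1.12, SE 0.046, adjusted p = 2.17e-09).

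Cdc20, the activator of the same complex in mitosis, went the other way, at 172 and 185 RPKM in G1 and 159 and 144 RPKM in G2M (log2 difference -0.24, SE 0.047, adjusted p = 0.00199). Cenpa, the centromeric histone H3, was at 87.2 and 96.1 RPKM in G1 and 79.5 and 73.9 RPKM in G2M (log2 difference -0.25, SE 0.049, adjusted p = 0.00198). Pttg1, the securin that holds sister chromatids until anaphase, differed by -0.16 (adjusted p = 0.0376). Cyclin B2, Ccnb2, differed by -0.16 (adjusted p = 0.0154) and the spindle protein Ckap2 by -0.12 (adjusted p = 0.0311), both with overlapping libraries. None of these 5 was called in the 8-library fit, and in the authors' deposited table Cdc20 and Cenpa were. Ckap2 changed sign, to 0.01 and 0.07, when G1 replicate 1 or G2M replicate 2 was left out. Cdc25a, the phosphatase that activates Cdk2 at the start of S phase as well as Cdk1, was at 42.5 and 43.2 RPKM in G1 and 30.6 and 32.7 RPKM in G2M, and fell by 0.43 (SE 0.043, adjusted p = 1.23e-05), also in the 8-library fit (adjusted p = 0.00695).

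**Figure D3:**
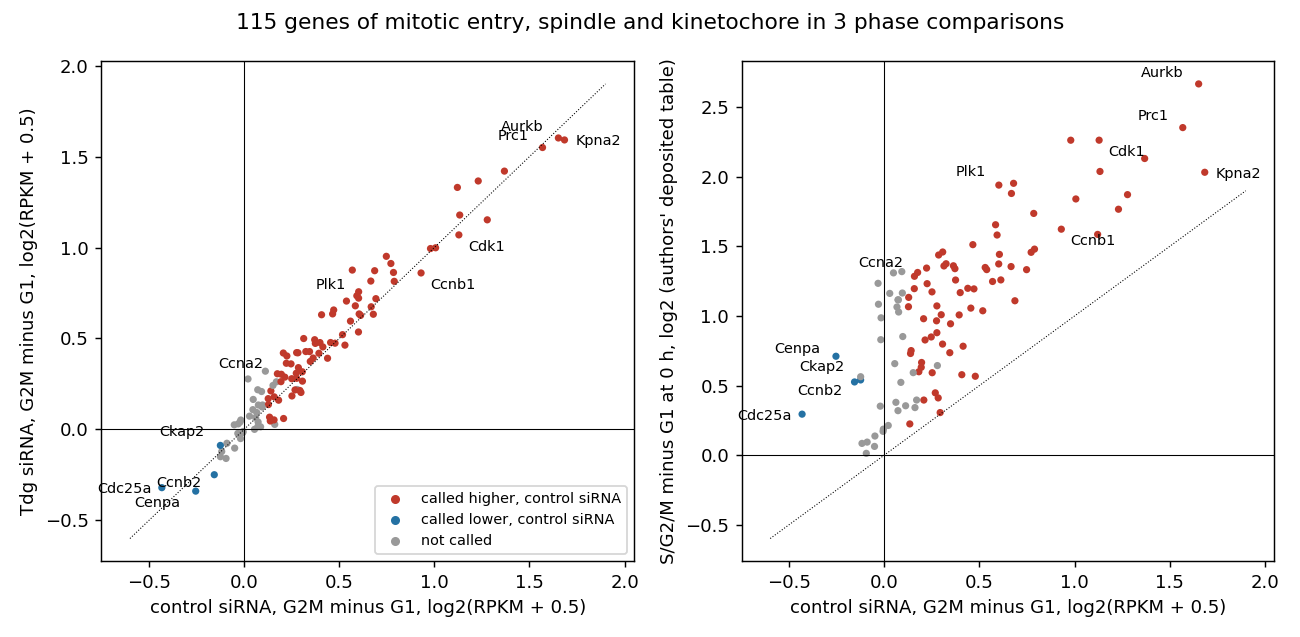
The 115 tested genes of mitotic entry, spindle and kinetochore, with the log2 difference in siC cells (horizontal) against that in siTdg cells (left) and against the SG2M minus G1 value of the authors' deposited table at 0 h (right, 111 genes). Points lie along the dotted line of equality on the left and mostly above it on the right, where all 17 genes below 0 in siC lie above 0.

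The same genes were higher in G2M cells with the Tdg siRNA. All 78 of the 115 mitotic entry, spindle and kinetochore genes that were called higher in siC were above 0 in siTdg. Top2a differed by 1.78, Aurkb by 1.60, Cdk1 by 1.07 and Ccnb1 by 0.86 there, and Cdc20 by -0.24 and Cenpa by -0.34. At 0 h, where S, G2 and M cells were pooled in one gate and the values are those of the authors' deposited table, the differences were larger, and that table called 8.87% of its genes higher and 2.69% lower. Top2a was 2.54 higher in SG2M than in G1 there, Aurkb 2.67, Cdk1 2.26, Plk1 1.94 and Ccna2 1.31. The 17 mitotic genes that were below 0 in siC cells were all above 0 at 0 h, and 9 of them were called higher there in the authors' deposited table, among them Cdc25a at 0.29, Ccnb2 at 0.53, Ckap2 at 0.54 and Cenpa at 0.71. Cdc20, of the anaphase-promoting group, was at 0.89. The median of the spindle genes was 0.28 in siC, 0.40 in siTdg and 1.18 at 0 h. Gates, cultures and the fitting of the 0 h set differ from those of the sorted siRNA cells, and their parts cannot be told apart.

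Promoters of the raised genes were examined for the elements named above, because the mitotic group moved together. RefSeq promoters (GRCm38.p6; the first listed start of each gene, 250 bases upstream) matched 9811 of the 12382 genes, and 93 of the 123 genes raised by at least 1.5-fold. A homology region, spelled TTTGAA and otherwise with the variant TTTAAA on either strand, was in 43% of those 93 promoters, against 17.6% of the genes tested and 25.5% of all 27025 promoters. CCAAT on either strand was in 64.5%, against 37.9% and 34.5%. Both together were in 34.4%, against 6.91% and 9%. The 104 promoters of genes lowered by at least 1.5-fold held a homology region in 23.1%, CCAAT in 39.4% and both in 9.62%. E2F-like motifs, written as TTGGCGC with the variants TTCCCGC as well as TTCGCGC on either strand, were in 16.1% of the raised set, 9.62% of the lowered set and 13% of the genes tested. Without the size threshold the homology region was in 19.9% of raised and 17.5% of lowered promoters. Of the mitotic and chromosome genes, 40.5% of the 84 called higher and 30.9% of the 55 others held one. CCAAT was in 61.9% and 60% of these promoters, so it did not separate them, and both together were in 33.3% and 20%.

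**Figure D4:**
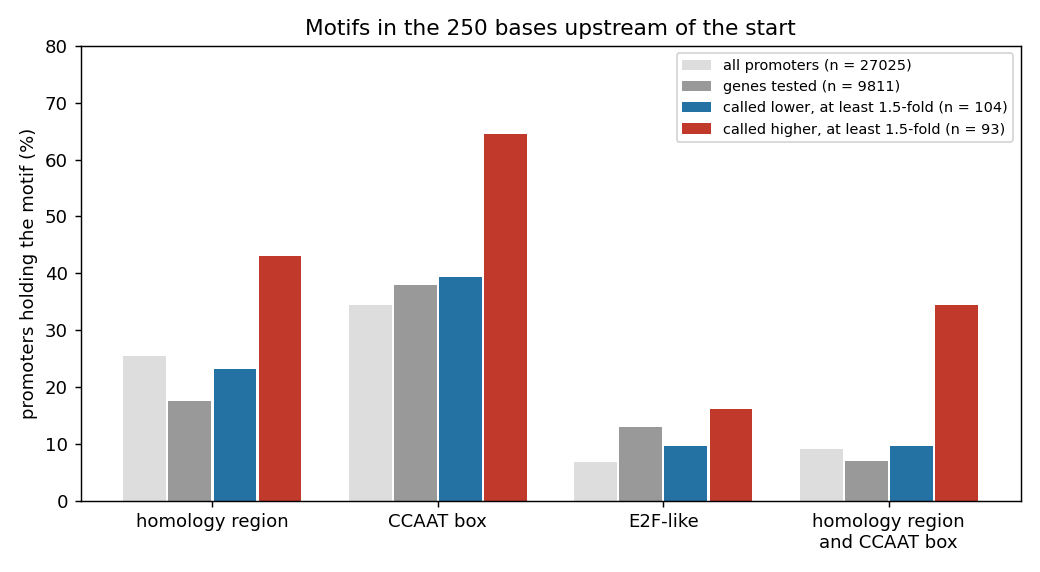
Share of promoters holding each motif in the 250 bases upstream of the start (vertical, percent, from 0), for all promoters, the genes tested, and the genes called lower or higher by at least 1.5-fold. The raised set stands at 43% for the homology region and 64.5% for CCAAT, and the other 3 sets lie between 17.6% and 25.5% and between 34.5% and 39.4%.

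The 4 raised mitotic genes with the largest rise that hold a homology region in this window are shown first, 5′ to 3′ with the gene, ending at the base before the start. Capitals mark homology regions, CCAAT boxes and E2F-like motifs, each on either strand.
Top2a: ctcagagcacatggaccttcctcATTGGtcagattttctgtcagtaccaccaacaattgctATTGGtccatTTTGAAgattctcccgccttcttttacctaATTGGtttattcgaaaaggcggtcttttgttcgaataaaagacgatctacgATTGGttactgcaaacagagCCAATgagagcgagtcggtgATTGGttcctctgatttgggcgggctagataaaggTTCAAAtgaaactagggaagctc
Kpna2: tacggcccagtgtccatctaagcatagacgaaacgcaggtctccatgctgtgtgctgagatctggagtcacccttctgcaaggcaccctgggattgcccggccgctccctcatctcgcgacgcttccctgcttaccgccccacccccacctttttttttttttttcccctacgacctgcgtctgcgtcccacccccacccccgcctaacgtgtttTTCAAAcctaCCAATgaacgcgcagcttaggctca
Cenpf: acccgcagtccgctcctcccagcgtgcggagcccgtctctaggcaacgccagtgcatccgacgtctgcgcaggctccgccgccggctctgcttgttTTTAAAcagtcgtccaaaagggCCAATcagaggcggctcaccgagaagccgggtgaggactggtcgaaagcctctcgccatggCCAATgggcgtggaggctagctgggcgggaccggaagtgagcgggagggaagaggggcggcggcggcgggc
Ube2c: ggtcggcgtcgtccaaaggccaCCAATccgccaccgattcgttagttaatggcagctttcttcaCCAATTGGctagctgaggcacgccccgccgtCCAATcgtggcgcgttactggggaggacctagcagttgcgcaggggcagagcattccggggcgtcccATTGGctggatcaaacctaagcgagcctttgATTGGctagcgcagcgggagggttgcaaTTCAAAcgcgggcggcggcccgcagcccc
Top2a (chr11:99024190-99024439, minus strand) holds 6 CCAAT boxes and 2 homology regions, one of them 23 to 18 bases before the start. Kpna2 (chr11:106999526-106999775, minus strand) holds a homology region 35 to 30 bases and a CCAAT box 25 to 21 bases before the start. In Ube2c (chr2:164769679-164769928, plus strand) the homology region is 29 to 24 bases before the start and there are 6 CCAAT boxes, counted on either strand. Those at 186 to 182 and 183 to 179 bases before the start overlap, on opposite strands. The one in Cenpf (chr1:189688087-189688336, minus strand) lies farther up, 154 to 149 bases before the start, with 2 CCAAT boxes between it and the start. Aurkb had no entry in the promoter table.

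Prc1 is shown as the raised mitotic gene with the largest rise and no homology region in the window, and Cdc6 and Dtl as the lowered G1/S genes with the largest falls that had a promoter.
Prc1: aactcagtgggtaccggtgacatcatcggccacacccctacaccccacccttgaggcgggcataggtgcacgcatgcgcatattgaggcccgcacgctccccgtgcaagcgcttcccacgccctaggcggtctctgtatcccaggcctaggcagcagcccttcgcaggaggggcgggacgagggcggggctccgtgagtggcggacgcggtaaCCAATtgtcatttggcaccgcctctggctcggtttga
Cdc6: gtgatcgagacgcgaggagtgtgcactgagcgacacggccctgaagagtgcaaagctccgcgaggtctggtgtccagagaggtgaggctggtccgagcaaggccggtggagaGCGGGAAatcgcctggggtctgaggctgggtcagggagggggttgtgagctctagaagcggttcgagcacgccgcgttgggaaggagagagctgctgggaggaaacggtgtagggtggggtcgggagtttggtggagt
Dtl: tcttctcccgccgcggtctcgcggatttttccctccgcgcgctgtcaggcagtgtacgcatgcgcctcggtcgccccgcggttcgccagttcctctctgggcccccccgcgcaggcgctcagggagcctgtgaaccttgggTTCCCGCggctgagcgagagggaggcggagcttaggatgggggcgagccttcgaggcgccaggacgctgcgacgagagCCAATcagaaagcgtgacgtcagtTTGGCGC
Prc1 (chr7:80294201-80294450, plus strand) holds 1 CCAAT box, 37 to 33 bases before the start. Its window ends in the first bases of TTTGAA, and elements that cross the start were not searched for. Cdc6 (chr11:98907901-98908150, plus strand) holds 1 E2F-like motif, 138 to 132 bases before the start, and no CCAAT box. Dtl (chr1:191575545-191575794, minus strand) holds 2 E2F-like motifs, one of them in the last 7 bases before the start, and 1 CCAAT box. E2F-like motifs were in 8 of 17 promoters of G1/S and replication genes called lower (47.1%) and in 4 of 16 called higher (25%). CCAAT was in 12 of the 17 (70.6%) and in 9 of the 16 (56.2%).

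Genes of the G1/S transition and replication moved in both directions. Of 72 tested, 22 were called higher and 19 lower, and the median was 0.01. The shares were 30.6% and 26.4%, against 17.9% and 11.1% of all genes tested. Cyclin E2, Ccne2, which starts S phase with Cdk2, was at 6.14 and 5.73 RPKM in G1 and 1.53 and 2.76 RPKM in G2M (log2 difference -1.32, SE 0.13, adjusted p = 1.53e-05). Cdc6, which loads the replicative helicase at origins, was at 26.3 and 28.4 RPKM in G1 and 12.4 and 16.6 RPKM in G2M (log2 difference -0.91, SE 0.064, adjusted p = 4.92e-07). Dtl, which targets the licensing factor Cdt1 for destruction, was at 43.8 and 40.1 RPKM in G1 and 26.6 and 30.3 RPKM in G2M (log2 difference -0.55, SE 0.060). All G1 libraries were above all G2M libraries for these genes. Cyclin E1, Ccne1, fell less, from 115 and 127 RPKM to 94.7 and 111 RPKM (log2 difference -0.24, SE 0.037), and was not called in the 8-library fit (adjusted p = 0.0585).

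Other genes of the list that were lower include the E2F factors E2f1 (-0.38), E2f2 (-0.36) and E2f8 (-0.46), the origin subunit Orc1 (-0.41), the histone messenger binding protein Slbp (-0.41) and the uracil glycosylase Ung (-0.51). Higher genes were led by Fbxo5, the inhibitor of the anaphase-promoting complex, at 46.7 and 46.2 RPKM in G1 and 64.2 and 63.5 RPKM in G2M (log2 difference 0.45, SE 0.039). Dnmt1, the maintenance DNA methyltransferase, rose from 57.9 and 56.2 RPKM to 77.7 and 72.4 RPKM (log2 difference 0.39, SE 0.038). Polymerase and clamp loader subunits such as Pole (0.30), Pola1 (0.28) and Rfc4 (0.30) were also called higher. These genes beyond the named pair at each end were chosen after their values were seen. The balance depends on the scaling, since limma-voom called 13 higher and 27 lower and quantile normalization 15 and 24.

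The licensing factor Cdt1 was at 99.2 and 95.8 RPKM in G1 and 95.4 and 91.0 RPKM in G2M, and its inhibitor Gmnn at 87.3 and 95.2 RPKM and 98.5 and 97.2 RPKM. Neither was called, with log2 differences of -0.06 (SE 0.036, adjusted p = 0.191) and 0.10 (SE 0.041, adjusted p = 0.0785). At 0 h Gmnn was 0.69 higher in SG2M in the authors' deposited table. The D-type cyclins were not called either, with Ccnd1 at 0.06 (SE 0.052) and Ccnd3 at -0.03 (SE 0.036). Of 27 G1 cyclins, kinases and inhibitors, 6 were higher and 6 lower (22.2% each, against 17.9% and 11.1% of all genes tested). The pocket protein gene Rbl1 was at 4.50 and 4.66 RPKM in G1 and 9.26 and 8.12 RPKM in G2M (log2 difference 0.85, SE 0.076), and Cdk6 rose by 0.64. Cdkn1c, an inhibitor of G1 kinases, was at 1.28 and 1.19 RPKM in G1 and 0.772 and 0.842 RPKM in G2M (log2 difference -0.41, SE 0.13, adjusted p = 0.0331), a call absent from the 8-library fit.

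Homologous recombination and Fanconi genes, which repair breaks with the sister chromatid, had 18 of 39 members higher and 1 lower (median 0.18). The shares were 46.2% and 2.56%, against 17.9% and 11.1% of all genes tested. In the 8-library fit 6 were higher, with median scaling 9, with limma-voom 11 with 3 lower, with no filter 5, and with no variance trend 0. Brca2 was at 18.9 and 14.1 RPKM in G1 and 24.4 and 20.8 RPKM in G2M (log2 difference 0.45, SE 0.056). Atm, the kinase that signals breaks, rose by 0.39 (SE 0.066), and Chek2, a kinase downstream of it, differed by -0.19 (adjusted p = 0.0165). Transcript length moved with phase and touches this group and the chromosome structure and centrosome groups. Of protein-coding genes in the longest 20% by exonic length, 25.6% were called higher and 4.42% lower (median 0.08), against 14% and 12.8% in the middle 20% (median 0.00). The shortest 20% had 22% higher and 9.4% lower (median 0.05), so the siC values did not run in order of length. In siTdg cells the medians ran from -0.05 in the shortest 20% to 0.16 in the longest. Among the recombination genes 38.5% were in the longest 20%, and of the 24 outside it 10 were higher and 1 lower (median 0.15). Chromosome structure and centrosome genes had 43.3% and 35.7% in the longest 20%. Outside it 9 of 17 chromosome structure genes (median 0.12) and 7 of 18 centrosome genes (median 0.11) were higher. For mitotic entry 0 of 30 genes were in the longest 20%, and for the spindle group 23 of 35 genes outside it were higher (median 0.25).

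Replication-dependent histone genes, whose messengers end in a stem-loop in place of a poly(A) tail and are made in S phase, were low. Of 68 listed, 49 were tested, none above 4.65 RPKM, and 32 were called higher and 1 lower (median 0.60). The shares were 65.3% and 2.04%, against 17.9% and 11.1% of all genes tested. H4c2 was at 0.200 and 0.876 RPKM in G1 and 1.93 and 1.58 RPKM in G2M (ratio of means 3.27, adjusted p = 0.000993), and H4c4 rose by 1.05. H2bc4 was at 4.65 and 3.60 RPKM in G1 and 3.62 and 2.27 RPKM in G2M (log2 difference -0.44, SE 0.092). These genes are near-identical copies, so the authors' counting may split reads among them. The rise was uneven between replicates, with a median of 0.83 in pair 1 and 0.30 in pair 2. Some other RNAs without a poly(A) tail moved with it in siC, Rn45s by 2.10 in pair 1 and 0.19 in pair 2. Small nucleolar RNA loci lay mostly below 0, with medians of -0.13 in pair 1 and -0.48 in pair 2. The part of such RNAs in the histone result was not tested. In the siTdg pairs the histone medians were 0.59 and 0.05, with Rn45s at -0.19 and -1.29. In the 8-library fit 9 histone genes were called, and without replicate 1 there were 6 higher and 1 lower.

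**Figure D5:**
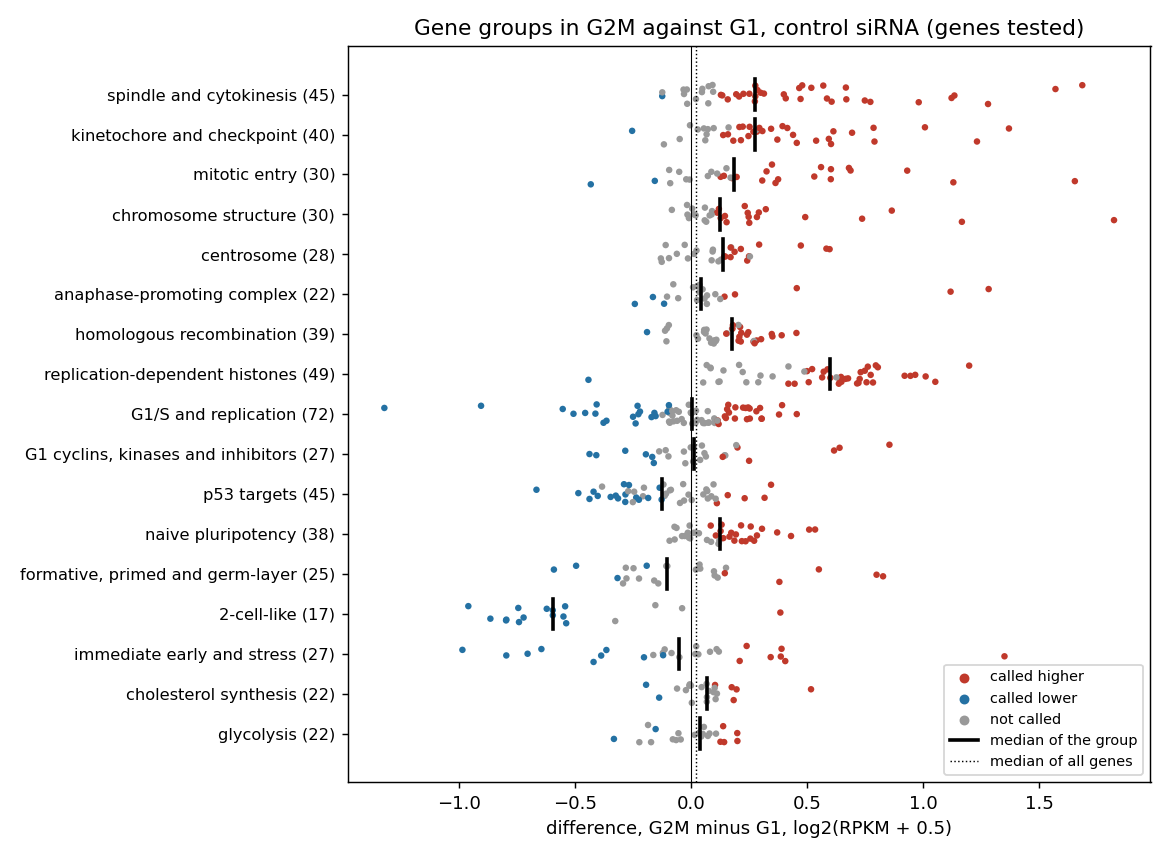
Log2 difference of every tested gene (horizontal) in 17 gene groups, with the number tested in parentheses, red for genes called higher, blue for lower and grey for neither, and a bar at each median. The spindle, kinetochore and histone groups lie mostly to the right of 0, the 2-cell-like group to the left, and the G1/S group spreads to both sides.

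Of 45 tested targets of p53, the tumour suppressor that arrests the cycle after damage, 17 were called lower in G2M and 5 higher (median -0.13), and 32 lay below 0. Those calls are 37.8% and 11.1% of the list, against 11.1% and 17.9% of all genes tested. Of all 12382 genes, 5545 lay below 0. In the 8-library fit 9 were lower and 1 higher. With no block the median was 0.03 without G2M replicate 2 and -0.0035 without G1 replicate 1, with none of the 45 called. Cyclin G1, Ccng1, was at 138 and 112 RPKM in G1 and 103 and 82.3 RPKM in G2M (log2 difference -0.44, SE 0.035, adjusted p = 1.78e-06). Cdkn1a, the p21 inhibitor of cyclin-dependent kinases, was at 89.7 and 80.2 RPKM in G1 and 74.5 and 64.9 RPKM in G2M (log2 difference -0.28, SE 0.037, adjusted p = 0.000116). Mdm2, the ubiquitin ligase that degrades p53, was at 71.1 and 49.7 RPKM in G1 and 58.2 and 39.0 RPKM in G2M, lower in each pair though the groups overlap (log2 difference -0.32, SE 0.040, adjusted p = 8.91e-05). All 3 were also called in the 8-library fit and in the authors' deposited table, which rest on the same siC libraries.

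Perp, a membrane protein of the p53 apoptosis response, had the largest fall of the list, from 10.1 and 8.92 RPKM to 6.75 and 4.94 RPKM (log2 difference -0.67, SE 0.074). Plk2, a polo-like kinase induced by p53, fell by 0.49 with overlapping libraries. The stress cytokine Gdf15 rose by 0.34 and Yju2 by 0.32. Trp53 itself was not called, at 175 and 176 RPKM in G1 and 187 and 183 RPKM in G2M (log2 difference 0.07, SE 0.033, adjusted p = 0.110). At 0 h the median of the list was -0.01, with Ccng1 at -0.04, Cdkn1a at -0.16, Mdm2 at -0.01 and Perp at -0.53 in the authors' deposited table.

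Genes of naive pluripotency, the ground state these culture conditions hold, were slightly higher, with 21 of 38 called higher and 0 lower (median 0.12; 23 and 1 by limma at an unadjusted p under 0.05). The share higher was 55.3%, where 17.9% of all genes tested were higher and 11.1% lower. Tet1, which oxidises 5-methylcytosine, was at 32.2 and 19.9 RPKM in G1 and 40.7 and 33.5 RPKM in G2M (log2 difference 0.53, SE 0.070). Lifr, the receptor for leukemia inhibitory factor, rose by 0.51. Zfp42 was at 478 and 444 RPKM in G1 and 577 and 523 RPKM in G2M (log2 difference 0.25, SE 0.031), while Nanog was not called at -0.07 (SE 0.030, adjusted p = 0.0904). The group depends on the setting, with 5 of these 38 called in the 8-library fit and 1 with no trend in the variance. At 0 h its median was 0.06 and 3 members were called higher in the authors' deposited table.

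Of 25 formative, primed and germ-layer genes, 5 were higher and 4 lower. These shares, 20% and 16%, are near the 17.9% and 11.1% of all genes tested. The Nodal inhibitors led the rises. Lefty1 was at 3.09 and 2.07 RPKM in G1 and 6.57 and 3.60 RPKM in G2M (log2 difference 0.83, SE 0.094), and Lefty2 rose from 9.32 and 6.98 RPKM to 20.3 and 10.2 RPKM (log2 difference 0.80, SE 0.096). The authors' deposited table at 0 h gives -0.05 and 0.01, with adjusted p of 0.868 and 0.962. Cdx2 and Id2, low transcripts of transcription regulators, were also called lower, at -0.59 and -0.50.

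Genes of the 2-cell-like state, a rare state of these cultures that resembles the 2-cell embryo, were lower in G2M. Of 17 tested, 13 were called lower and 1 higher, 16 lay below 0, and the median was -0.60. The called shares were 76.5% and 5.88%, against 11.1% and 17.9% of all genes tested. Zscan4f was at 15.1 and 9.79 RPKM in G1 and 7.03 and 5.94 RPKM in G2M (log2 difference -0.86, SE 0.080, adjusted p = 6.68e-06). Gm5662 was at 15.4 and 9.22 RPKM in G1 and 7.24 and 4.78 RPKM in G2M (log2 difference -0.96, SE 0.067, adjusted p = 4.37e-07). Pramel6 was the 1 gene higher, by 0.38. The Zscan4 and Usp17l members are near-identical copies, so they are not independent and their reads may be split. The fall was larger in pair 1 (median -0.77) than in pair 2 (-0.48), the siTdg median was -0.58, and 13 members were called in the 8-library fit. At 0 h the median was -0.34 in the authors' deposited table, with Zscan4f at -1.22 and Gm5662 at 0.29. That table called 0 members at 0 h, and for some, Zscan4f among them, it gave no adjusted p. In bulk libraries fewer cells in this state and less RNA per cell cannot be told apart.

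The immediate early and stress list had 9 of 27 genes lower and 7 higher (33.3% and 25.9%, against 11.1% and 17.9% of all genes tested). Junb, a growth-factor-induced transcription factor, was at 9.93 and 8.87 RPKM in G1 and 5.43 and 4.97 RPKM in G2M (log2 difference -0.80, SE 0.067), and Dusp4, a phosphatase of the same pathway, fell by 0.99. Chac1 and Trib3, both induced by the integrated stress response, rose by 1.35 and 0.41. Of 22 cholesterol synthesis genes 5 were higher and 2 lower. Hsd17b7 rose by 0.20, and Cyp51 and Stard4 fell by 0.19 and 0.14. Glycolysis also had 5 of 22 higher and 2 lower. These counts are near the shares of all genes, 17.9% higher and 11.1% lower. Its glucose transporters Slc2a1 and Slc2a3 fell by 0.33 and 0.15, each with overlapping libraries, and Hk2 and Ldha each rose by 0.20.

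Lists of other cell types had few members above the minimum. Fibroblast and feeder markers had 3 of 10 tested and 0 called by limma, with or without adjustment, with Fbn1 at 0.26 (SE 0.13) and Col5a1 at 0.16 (SE 0.099). Trophoblast and primitive endoderm markers had 7 of 16 tested, 1 higher (Lama1, 0.43) and 3 lower, the largest being Cdx2 and Krt18 (-0.46). Of blood and endothelial markers 3 of 10 were tested and Spi1 was lower (-0.42), and of neural markers Tubb3 was higher (0.34) and Sox1 lower (-0.32).

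Several low transcripts outside the cell cycle fell by more than 1.5-fold. Magef1, a MAGE family gene, was at 2.63 and 2.53 RPKM in G1 and 0.515 and 0.518 RPKM in G2M (log2 difference -1.60, SE 0.12, adjusted p = 1.09e-06). Gzmm, a granzyme gene, was at 2.29 and 1.68 RPKM in G1 and 0.309 and 0.328 RPKM in G2M (log2 difference -1.59, SE 0.14, adjusted p = 5.25e-06). Gpnmb, a glycoprotein of lysosomes and the cell surface, was at 5.24 and 7.01 RPKM in G1 and 1.42 and 2.21 RPKM in G2M (log2 difference -1.52, SE 0.088, adjusted p = 7.09e-08). The groups lay far apart for all 3, and each was called in the 8-library fit. At 0 h the authors' deposited table has Magef1 at -0.90, Gzmm at -1.05 and Gpnmb at 0.10. Their adjusted p values there were 0.115, 0.224 and 0.743. Fam222a fell by 1.08 and Osgin1, an oxidative stress response gene, by 0.93, and the non-coding transcript Gt(ROSA)26Sor by 1.31.

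In the 8-library fit 1 of 12462 genes (0.00802%) had a phase difference that differed between siTdg and siC by adjusted p, and 466 did at an unadjusted p under 0.05. It was Mir3064, a microRNA locus that lies within Ddx5 in RefSeq. In siC its locus was at 13.4 and 8.40 RPKM in G1 and 3.53 and 1.88 RPKM in G2M, a log2 difference of -1.85 (SE 0.075), against 0.13 in siTdg, and the difference between the siRNAs was 1.98 (SE 0.10, adjusted p = 0.00145). The count of 1 became 0 with no filter, with no block and with limma-voom, 86 and 97 without replicates 1 and 2, and 1202 and 21 without siTdg replicates 1 and 2. Reads of Ddx5 and of the locus within it may not be separable, and Ddx5 differed by -0.10 in siC and 0.04 in siTdg. Of the 294 genes past 1.5-fold in siC with a value in siTdg, 264 had the same sign there, and of 247 with a value at 0 h, 205 did. The siC and siTdg comparisons share no library.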

How the data were processed

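RNA-seq of siC cells sorted in G1 and G2M was analysed, 2 libraries each. RPKM values per gene were deposited by the authors, with their mean normalised count per gene (a signal), log2 fold change, test statistic (a score) and p-value, made with the tools that the submitters' processing notes name. Those notes name TopHat, DESeq2 for the authors' comparisons and the mm9 build, and state no version. Reads recovered from RPKM and the deposited normalised means were whole numbers within 0.01 reads for 100% of values. The authors' deposited siC log2 values were read as G2M minus G1 with no change, and those at 0 h were turned to SG2M minus G1.

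Genes averaging 0.5 RPKM or more were fitted on log2(RPKM + 0.5), which understates changes of low genes, with limma 3.58.1 (R 4.3.3; trend) and Benjamini-Hochberg adjustment over 12382 genes (adjusted p under 0.05). The replicate number was a block because the deposited comparison is described as paired; the labels do not say that numbers mark a shared culture, and same-numbered libraries deviated together from their group means (r 0.656 across genes, which are not replicates). With 1 residual degree of freedom the calls rest on a spread shared across genes (prior degrees of freedom 12.5), and on simulated data false calls could exceed the nominal rate. Groups came from sample titles; 4 value columns with no sample were not used. The siTdg libraries entered the 8-library fit and the interaction. Members and the 21 gene lists (672 symbols, 597 matched by symbol, 70 by RefSeq synonym and 5 unmatched) were chosen with earlier results of these data known. Genes named are the 10 largest rises and falls among called genes of at least 1 RPKM in the higher group with no overlap of libraries and an established symbol, 16 cell cycle and p53 genes, and up to 2 rises and 2 falls per list, and the gene with an interaction call; 2 genes that this rule picks are not reported here. Alternatives were the pseudocount, the low-value filter, the block, the variance trend, scaling, limma-voom, the 8-library fit and leaving out libraries. SDs are not given for groups of 2, whose values are printed.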

Additional observations from a re-analysis of the deposited data

Results flagged for a closer look

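Mir3064 had a different phase effect with the siRNAs: 1.98 on the log2 scale for siTdg minus siC (adjusted p = 0.00145 in the fit of 8 libraries). The difference was between the effects in the 2 siRNA groups, of 2 pairs each. With no filter, with no replicate block and with limma-voom 0 genes passed this test, and 86 and 97 did without replicates 1 and 2.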

How the results depend on the processing

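Counts of called genes moved with most settings. Without the replicate block 3 genes were called, 3 higher and 0 lower, with 1225 at an unadjusted p under 0.05. Without the trend 326 were higher and 267 lower (593), and with no filter 1079 and 748 (1827). In the 8-library fit 636 were higher and 440 lower (1076). Quantile normalization called 1347 higher, median scaling 1285 and limma-voom 1089. Leaving out either replicate number, with the siTdg libraries giving the spread, called 500 to 647 genes (255 to 327 higher, 245 to 320 lower). Leaving out 1 library with no block called 4, 9, 75 and 56 (4, 7, 23 and 40 higher, 0, 2, 52 and 16 lower; G1 replicates 1 and 2, then G2M replicates 1 and 2). The block, the trend, the filter and the 8-library fit leave the siC difference of a gene unchanged, so they could not turn its direction. Under the pseudocount, scaling and limma-voom settings the genes past 1.5-fold kept their direction. Without replicates 1 and 2, 288 of 291 and 294 of 296 did. Of 87 named genes, 10 kept their side of the threshold without the block, 51 with no trend, 64 in the 8-library fit, 66 with no filter, 53 to 54 without a replicate number, 11 to 30 without 1 library and 77 to 87 under the pseudocount, scaling, voom and stricter filter settings. Among named genes called in siC, Ckap2 changed sign, to 0.00876 without G1 replicate 1 and 0.0682 without G2M replicate 2; the cause was not tested. The interaction count of 1 became 0 with no filter, with no replicate block, with limma-voom and without any 1 siC library with no block. It became 86 and 97 without replicates 1 and 2, and 21 to 1202 without a siTdg replicate, settings added after the data were seen. The causes of these moves were not tested. With 2 libraries a group, 1904 calls are below 1.2-fold and rest on the shared spread.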

Other observations

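Non-coding transcripts differed between the phases in a way that the gene lists do not describe. These classes, from RefSeq biotypes, were chosen after values were seen. Of 411 long non-coding RNAs tested, 29.4% were called lower in G2M and 4.62% higher (median log2 difference -0.16), against 10.1% and 18.5% of 11643 protein-coding genes (median 0.03). The medians of the long non-coding RNAs were -0.19 in pair 1, -0.12 in pair 2, -0.11 in siTdg cells and -0.24 in the authors' deposited table at 0 h. Small nucleolar RNA loci were lower in 41 of 88 and higher in 7 (median -0.26 in siC, -0.13 in pair 1 and -0.48 in pair 2, -0.04 in siTdg, and -0.0010 in the authors' deposited table at 0 h), and microRNA loci lower in 21 of 66 and higher in 5. Such loci lie within introns or exons of host genes, whose reads may not be separable from theirs.

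Among 16 small nucleolar RNA host genes of the Snhg family, 8 were called lower by limma (medians -0.30 in siC and -0.20 in siTdg), and 13 of 16 lay below 0 in each of siC and siTdg. That is 50% lower, against 11.1% of all genes tested and 29.4% of long non-coding RNAs. Of those called, Snhg1, Snhg3, Snhg8, Snhg11 and Snhg16 had overlapping libraries. The authors' deposited table called Snhg3, Snhg4, Snhg7 and Snhg11 among them. Snhg4 was at 19.6 and 14.9 RPKM in G1 and 11.1 and 6.56 RPKM in G2M (log2 difference -0.96, SE 0.072). Snhg7 was at 8.85 and 5.31 RPKM in G1 and 3.99 and 2.49 RPKM in G2M (log2 difference -1.01, SE 0.078). Snhg5 and Snhg15 were not called, at 0.05 and 0.02. The microRNA host Mir17hg was at 9.37 and 4.42 RPKM in G1 and 4.64 and 2.15 RPKM in G2M, lower in each pair though the groups overlap (log2 difference -0.92, SE 0.078). Tug1, a long non-coding RNA, was at 25.9 and 20.7 RPKM in G1 and 15.8 and 14.0 RPKM in G2M (log2 difference -0.62, SE 0.054).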
